A study of Mus musculus with 18 samples.

Results

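The 9 genes described here encode components, receptors and an inhibitor of the complement system: C1qa, C1qb, C1qc, C3, Cfb, Cfp, C3ar1, C5ar1 and Serping1. They were chosen by symbol, and all 9 were found among the 62197 genes of a table of normalized counts from bulk RNA-seq of mouse bone marrow-derived dendritic cells (DCs). Complement is a set of proteins that mark microbes, immune complexes and dying cells for uptake and release small peptides that attract and activate leukocytes. C1q starts the classical pathway, whereas C3, factor B and properdin form and stabilise the enzyme that drives the alternative pathway, and both routes split C3 and C5 into fragments read by receptors such as C3aR1 and C5aR1. Liver makes most of the plasma pool of many components, but macrophages and DCs also make C1q, C3, factor B and properdin locally.

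The study asked how squeezing DCs to a fixed height changes their state, and whether the lipid enzyme cPLA2, encoded by Pla2g4a, takes part. There were 6 conditions with 3 libraries each. DCs were grown from bone marrow for 10 days with supernatant containing GM-CSF, a cytokine that yields DC-like cells together with other myeloid cells, and came from WT or cPLA2 KO mice. Cells were left nonconfined and taken at the end of the culture, squeezed to 3 µm and taken 4 h after confinement began, or given 100 ng/ml of LPS, a bacterial cell wall component, for 30 min. The 30 min are from the labels, and the Methods give a slightly shorter time. LPS was then washed off and these cells, not confined, were taken the next day. In the KO, floxed Pla2g4a was deleted by Cre under the Itgax (CD11c) promoter, so the deletion is limited to cells in which that promoter has been active. Whether the WT mice carried the Cre is not stated for these libraries. The Methods give an age of 6 to 8 weeks for marrow donors and either sex for mice of the study, whose breeders had been backcrossed to C57BL/6. For the experiments in general they give an older range, which starts at 8 weeks. The number of animals and any pooling are not stated in the labels. The conditions also differ in the time of collection and in handling, which cannot be told apart from confinement or LPS. The protocol text of the labels speaks of LPS for every sample, but titles and treatment entries name it for 6 libraries only, and these decided the groups.

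Values are normalized counts, meaning gene counts divided by a size factor per library and not scaled for gene length. Reads on genes ranged from 33027230 to 61300021 per library. Changes are log2 fold changes between group means of log2(normalized count + 1) from limma, in a fit of all 18 libraries, with p-values adjusted by the Benjamini-Hochberg method over the 17875 genes that reached 10 normalized counts in at least 3 libraries. A gene rose or fell where the adjusted p was under 0.05, and it was called where the log2 fold change was also beyond 1 in either direction. The p-values measure only the spread between these libraries, which a figure legend of the study calls biological replicates without saying whether they are separate cultures or animals. All 9 genes passed the filter, group means are given ± SD over 3 libraries, and SE is the standard error of a log2 fold change.

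The label of the cells was set against marker genes. All 8 genes of a DC list (Itgax, H2-Ab1, Cd74, Zbtb46, Flt3, Ccr7, Ciita and Batf3) were measured above the filter, and Cd74, which escorts MHC class II, supplied 65.2% of their summed level. That sum was 372003, 346208 and 352511 normalized counts in nonconfined WT, 429724, 405165 and 419667 in nonconfined KO, 334890, 312649 and 322828 in confined WT and 296656, 281875 and 295042 in confined KO libraries. Under LPS it was 531498, 463979 and 491010 for the WT label and 471128, 522892 and 505182 for the KO label. The sum was highest in the LPS libraries and lowest in confined KO cells. Markers of macrophages, neutrophils, eosinophils, and mast cells and basophils were present as well, and their sums stand beside the results they move with. By the Methods, most cells of such cultures carry CD11c, granulocytes are lost as they do not adhere, macrophages stay on the plate, and the loosely adhering cells are taken as DCs. In such bulk samples, fewer cells of a type and less RNA per cell cannot be told apart.

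Some LPS libraries differ in Ddx3y from other libraries with their genotype label. Ddx3y, a gene of the Y chromosome, stood at 3.05, 0 and 1.97 in nonconfined WT and 0, 1.72 and 2.37 in confined WT libraries, but at 949, 981 and 874 in nonconfined KO and 1036, 920.2 and 948 in confined KO libraries. Outside LPS, WT libraries therefore lacked Y-linked RNA and KO libraries held it, so genotype and the sex of the donors cannot be told apart. With LPS, Ddx3y was 1271, 0 and 662 in the libraries labelled WT 1 to 3 and 2.12, 1476 and 783 in those labelled KO 1 to 3. The libraries labelled LPS WT 1, LPS WT 3 and LPS KO 1 thus have the Ddx3y level of the opposite genotype label or one between the groups. LPS KO 3 is below the KO libraries of the other treatments. Where those 3 are said below to go against their labels, Ddx3y alone is meant, which marks donor sex and not the deletion. Pla2g4a was 697, 686 and 770.4 in nonconfined WT against 548, 542 and 533 in nonconfined KO cells, and 1369, 1430.3 and 1321 against 923, 871 and 919.5 in confined cells, with no overlap in either treatment (log2 fold change -0.41, SE 0.06, adjusted p = 1.9e-04, nonconfined and -0.60, SE 0.06, adjusted p = 3.8e-08, confined). With LPS it was 1005, 969 and 967 under the WT label and 1065, 1032 and 1028 under the KO label, where the KO label was the higher (log2 fold change 0.09, adjusted p = 1). These counts cover the whole gene and do not show which part was deleted. LPS was compared with nonconfined cells by averaging over the genotype labels. For the complement genes listed at the start, this change is also given in a setting without the 3 libraries named. Other results that rest on LPS, among them those of most other complement genes, are given in that setting only where stated. That setting was chosen by Ddx3y after the data were seen. Pla2g4a does not support it, as the KO 2 and KO 3 libraries it keeps lie above the WT 2 library it keeps, against the difference seen outside LPS.

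The 3 chains of C1q come first. C1qa, C1qb and C1qc encode the A, B and C chains, which assemble into the molecule that binds antibody complexes and dying cells. C1qa was at 369, 399.9 and 399 in nonconfined WT, 755, 585 and 687 in nonconfined KO, 203, 206 and 225 in confined WT and 322, 299 and 315 in confined KO cells. Under LPS it was at 353, 173 and 257 in libraries labelled WT and 206, 336 and 266 in those labelled KO. Every nonconfined KO library lay above every nonconfined WT library, these lay above all others, and the LPS libraries spread across both confined groups, which did not overlap. C1qb was at 2369.8, 2158 and 2281 in nonconfined WT, 3343, 3156 and 3180.3 in nonconfined KO, 1568, 1439.7 and 1506 in confined WT and 1816, 1676 and 1787 in confined KO cells. The LPS libraries held 2531, 1707 and 2116 under the label WT and 1723, 2308 and 2086 under the label KO. It was again highest in nonconfined KO cells and lowest in confined WT cells, while the LPS libraries overlapped the nonconfined WT and confined KO groups. C1qc was at 1791, 1557 and 1683 in nonconfined WT, 2130.4, 2177 and 2183 in nonconfined KO, 1094, 858 and 1003 in confined WT and 1155, 1097 and 1120.0 in confined KO cells. LPS libraries stood at 1330.1, 1094 and 1211 with the label WT and 1031, 1474 and 1213 with the label KO. Its nonconfined groups stood apart from each other and above all confined and LPS libraries, and its confined groups were next to each other, with 1094 as the highest WT and 1097 as the lowest KO value.

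With confinement all 3 C1q genes fell in both genotypes. In WT cells C1qa went from a mean of 389 to 211, which is 1.84-fold lower, C1qb was 1.51-fold lower and C1qc 1.7-fold lower. In KO cells they were 2.17-fold, 1.83-fold and 1.92-fold lower. The log2 fold changes in WT cells were -0.88 (SE 0.19, adjusted p = 3.5e-04) for C1qa, -0.59 (SE 0.10, adjusted p = 4.9e-05) for C1qb and -0.77 (SE 0.10, adjusted p = 1.3e-06) for C1qc. Those in KO cells were -1.11 (adjusted p = 4.6e-05), -0.87 (adjusted p = 5.6e-07) and -0.94 (adjusted p = 1.5e-07). Whether the fall differed between genotypes was tested with the interaction, which gave -0.23 (adjusted p = 0.587) for C1qa, -0.28 (adjusted p = 0.176) for C1qb and -0.17 (adjusted p = 0.428) for C1qc. None of these passed, and the C1qc value turned to 0.02 with every library scaled to the same total. For C1qb the interaction passed when the LPS libraries were left out of the fit (adjusted p = 0.0073, from 0.0073 to 0.63 over all alternatives).

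Without confinement the C1q genes were higher in KO than in WT cells. C1qa was at 676 ± 85.9 against 389 ± 17.7, 1.74-fold higher, with log2 fold changes of 0.79 (SE 0.19, adjusted p = 0.0106) for C1qa, 0.51 (adjusted p = 0.00387) for C1qb and 0.37 (adjusted p = 0.0273) for C1qc. C1qb passed under every alternative, with adjusted p from 2.6e-06 to 0.026. C1qa no longer passed without nonconfined KO library 1 (adjusted p = 0.066, from 2.2e-05 to 0.066 over all alternatives). C1qc no longer passed without nonconfined WT library 2 or 3 or nonconfined KO library 1 or 3 (adjusted p = 0.13, 0.079, 0.077 and 0.087, from 0.0023 to 0.13). In confined cells C1qa was 1.48-fold higher in KO, with a log2 fold change of 0.56 (SE 0.19, adjusted p = 0.02), which missed the threshold without confined WT library 1 or 2 or confined KO library 1 or 3 (adjusted p = 0.059, 0.056, 0.057 and 0.052, from 0.00012 to 0.059). C1qb and C1qc differed by 0.23 (adjusted p = 0.0937) and 0.20 (adjusted p = 0.14) there, and passed with every library scaled to the same total (adjusted p = 0.0026 and 0.0042) or with the LPS libraries out of the fit (0.0018 and 0.037), from 0.0018 to 0.23 and 0.0042 to 0.51 over all alternatives.

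LPS also lowered the C1q genes relative to nonconfined cells. The log2 fold change was -0.99 (SE 0.13, adjusted p = 6.9e-07) for C1qa, -0.39 (adjusted p = 6.1e-05) for C1qb and -0.64 (adjusted p = 5.9e-08) for C1qc. Without the 3 LPS libraries whose Ddx3y goes against their labels it was -1.16, -0.48 and -0.65. With every library scaled to the same total all 3 genes moved further down, and C1qa and C1qc were called lower. With WT-labelled libraries alone the C1qb value was -0.12 (adjusted p = 0.34, from 1.4e-10 to 0.34 over all alternatives). C1q is also a product of macrophages, so a macrophage list without the C1q genes is given beside these values. Of its 14 genes, 10 were tested, Cd163, Timd4 and Vsig4 stayed under 10 normalized counts in every library, with a highest value of 4.94, and Cd14 supplied 47.3% of the sum. The sum was 60407, 58801 and 59410 in nonconfined WT, 62256, 67055 and 64630 in nonconfined KO, 194038, 185563 and 186452 in confined WT, 80035, 74347 and 77864 in confined KO, 148560, 153852 and 144828 under LPS WT and 147294, 142460 and 146674 under LPS KO. Cd14, a coreceptor for LPS, carried most of that pattern: without it, the sum stayed between 56153 and 67023 in all 18 libraries. In the macrophage list 3 genes rose and 3 fell with confinement in WT cells, 3 rose and 3 fell in KO cells, 2 were higher and 0 lower in nonconfined KO than WT cells and 5 and 2 in confined ones, and 5 rose and 4 fell with LPS. In the interaction 0 were higher and 3 lower. Their part in the C1q result was not tested.

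**Figure D1:**
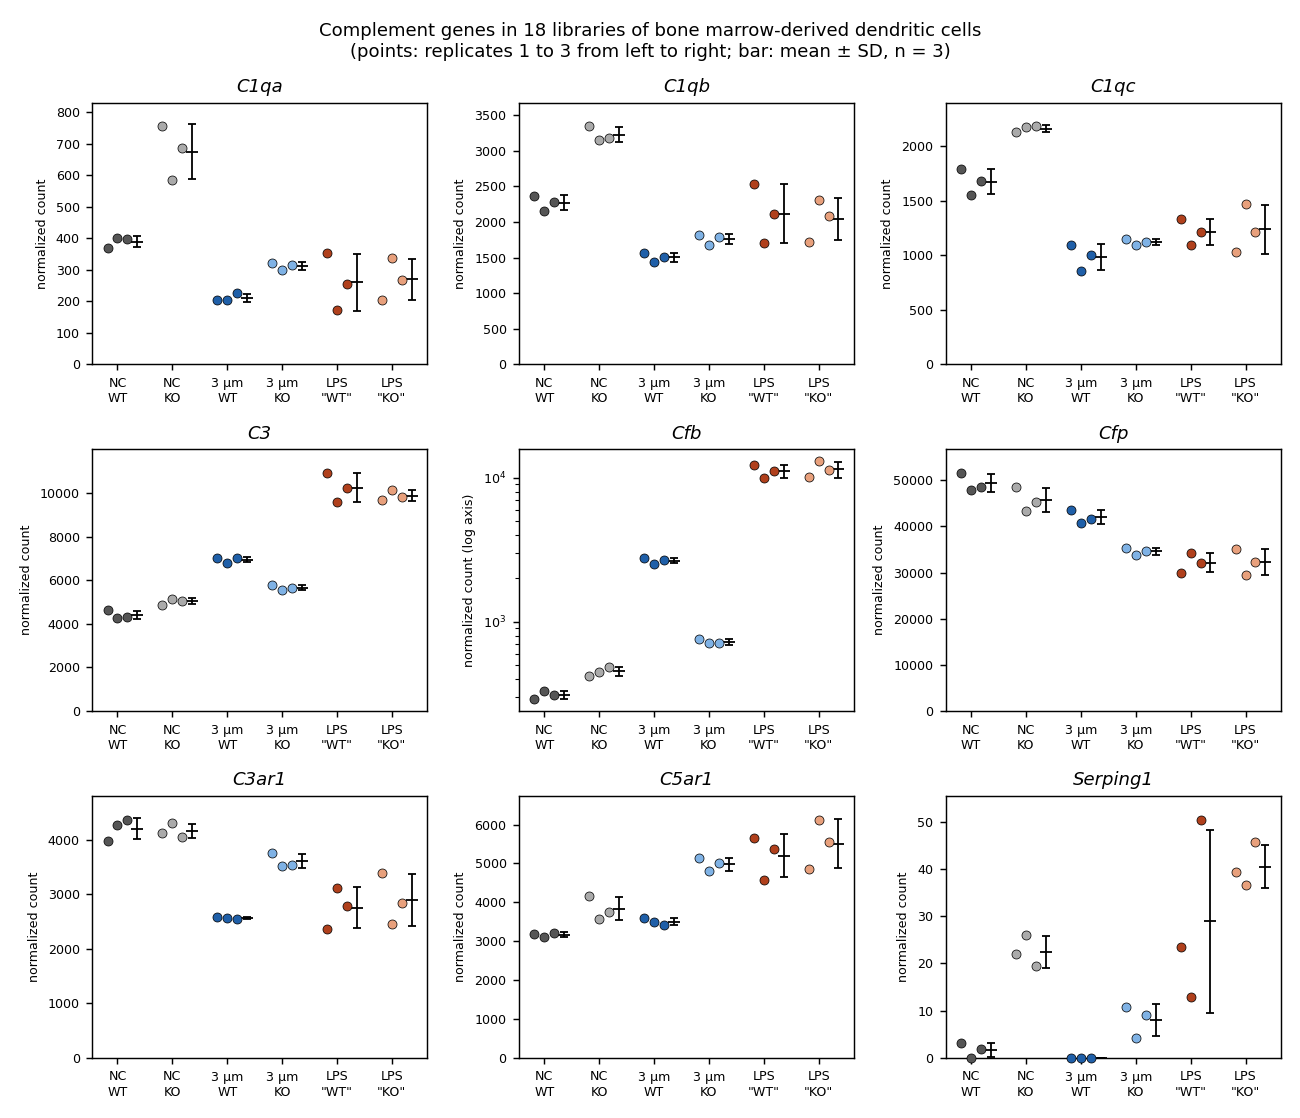
Normalized counts (vertical axes, from 0 except for Cfb, whose axis is logarithmic) of the 9 complement genes in the 6 conditions (horizontal axes; NC, nonconfined; 3 µm, confined; quotation marks, genotype as labelled), with each point a library and bars for mean ± SD of 3 libraries. Cfb runs from 291 in a nonconfined WT library to 12981 in an LPS library, while the C1q genes are highest in nonconfined KO cells.

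C3, Cfb and Cfp serve the alternative pathway. Cfb encodes factor B, whose cleaved form is the protease of the alternative C3 convertase. Cfb was at 291, 332 and 309 in nonconfined WT, 423, 449.6 and 487 in nonconfined KO, 2752, 2535 and 2689 in confined WT and 765, 710.2 and 707 in confined KO cells. Under LPS it was at 12218, 9920.2 and 11061 in libraries labelled WT and 10062, 12981 and 11337 in those labelled KO. The conditions were ordered LPS, confined WT, confined KO, nonconfined KO and nonconfined WT with no overlap between any of these, and the LPS labels overlapped each other. C3 encodes the central component, whose cleavage all pathways share. C3 was at 4621, 4264 and 4316 in nonconfined WT, 4881, 5151 and 5062 in nonconfined KO, 6998, 6800.0 and 7009.9 in confined WT and 5764, 5533 and 5647 in confined KO cells. The LPS libraries held 10905, 9563 and 10231 under the label WT and 9667, 10149 and 9824 under the label KO. It had the same order of conditions as Cfb, again with overlap between the LPS labels alone, over a smaller range. Cfp encodes properdin, which stabilises the convertase. Cfp was at 51547, 47979 and 48531 in nonconfined WT, 48577, 43420.3 and 45371 in nonconfined KO, 43670.2, 40765 and 41627 in confined WT and 35311, 33893 and 34660.5 in confined KO cells. LPS libraries stood at 30022, 34265 and 32183 with the label WT and 35065, 29473 and 32195 with the label KO. Its nonconfined WT, nonconfined KO and confined WT groups formed a chain of overlapping ranges above the confined KO and LPS libraries.

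Confinement raised Cfb from 310.4 ± 20.4 to 2659 ± 112 in WT cells, 8.56-fold, and from 453 ± 32.2 to 727 ± 32.6 in KO cells, 1.6-fold. The log2 fold changes were 3.10 (SE 0.08, adjusted p = 7.8e-18) and 0.68 (SE 0.08, adjusted p = 9.8e-07). The response was smaller in KO cells by a tested difference of -2.41 (SE 0.12, adjusted p = 7.1e-13). C3 rose 1.58-fold in WT cells, with a log2 fold change of 0.66 (SE 0.05, adjusted p = 1.0e-10), and 1.12-fold in KO cells, with 0.17 (SE 0.05, adjusted p = 0.00601). The interaction was -0.49 (SE 0.07, adjusted p = 6.7e-06). The small rise of C3 in KO cells no longer passed with TMM scaling (0.12, adjusted p = 0.058, from 0.0027 to 0.058 over all alternatives). Cfp fell in both genotypes, 1.17-fold in WT (-0.23, adjusted p = 0.00204) and 1.32-fold in KO cells (-0.40, adjusted p = 9.3e-06). Its interaction of -0.17 (adjusted p = 0.15) did not pass and turned to 0.02 with every library scaled to the same total. In confined cells Cfb was 3.65-fold and C3 1.23-fold lower in KO than in WT (log2 fold changes -1.87, adjusted p = 7.7e-14, and -0.30, adjusted p = 2.9e-05). Cfp was 1.21-fold lower there (-0.28, adjusted p = 6.7e-04), but changed by -0.12 on the log2 scale with every library scaled to the same total (adjusted p = 0.1, from 1.9e-05 to 0.1 over all alternatives). That scaling raised the median of all genes in this comparison from 0.041 to 0.194, so the differences of C3 and Cfb also shrink under it.

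The genotype difference of Cfb and C3 ran the opposite way before confinement. In nonconfined cells Cfb was 1.46-fold higher in KO cells (0.54, SE 0.08, adjusted p = 3.5e-04) and C3 1.14-fold higher (0.19, SE 0.05, adjusted p = 0.013). C3 no longer passed without nonconfined WT library 2 or 3 or nonconfined KO library 3 (adjusted p = 0.07, 0.063 and 0.051, from 0.0021 to 0.07). Cfp differed by -0.11 (adjusted p = 0.294). LPS raised Cfb 29.5-fold and C3 2.13-fold, with log2 fold changes of 4.90 (SE 0.06, adjusted p = 1.4e-24) and 1.10 (SE 0.03, adjusted p = 1.0e-17), and Cfp fell 1.48-fold (-0.56, adjusted p = 6.7e-11). With every library scaled to the same total they were 4.40 for Cfb, 0.60 for C3, which was then no longer called, and -1.06 for Cfp, which was. Without the 3 LPS libraries whose Ddx3y goes against their labels these values were 4.87 for Cfb, 1.05 for C3 and -0.55 for Cfp. Cfb in confined WT cells thus lay between nonconfined and LPS cells, at a log2 fold change of -2.08 (adjusted p = 1.1e-15) from LPS cells, and in confined KO cells at -3.95 (adjusted p = 3.3e-21) from them.

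**Figure D2:**
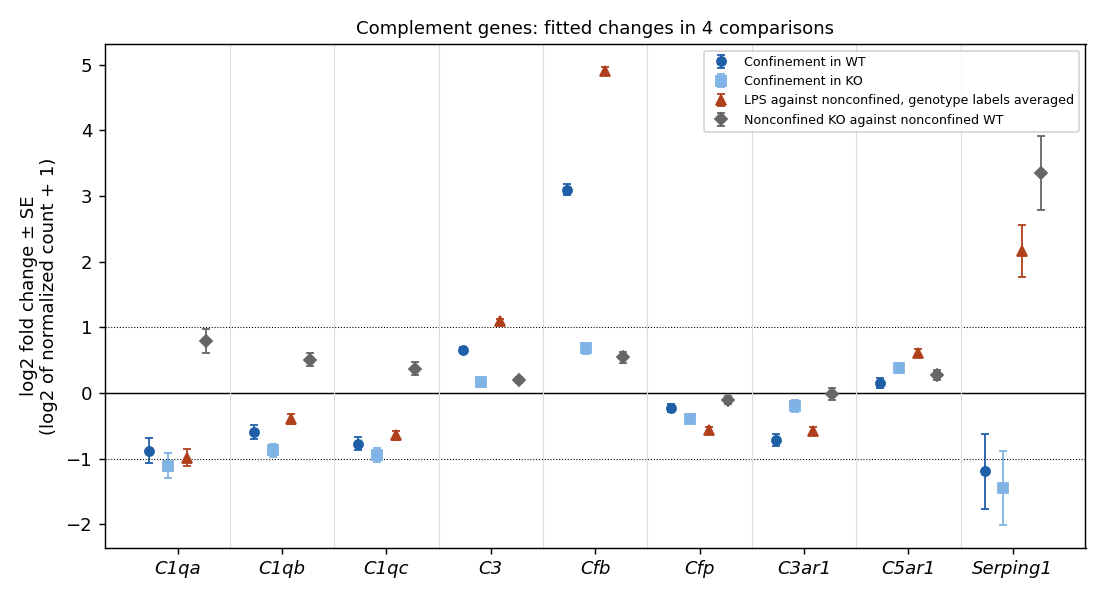
Log2 fold change ± SE from limma (vertical axis, on log2 of normalized count + 1) of the 9 complement genes (horizontal axis) with confinement in WT (circles) and KO cells (squares), with LPS (triangles) and in nonconfined KO against WT cells (diamonds), where dotted lines mark 1 and -1. Cfb has the widest gap between confinement in WT (3.10) and in KO cells (0.68); the comparisons share nonconfined libraries, and C5ar1 in confined WT cells turns to -0.08 with every library scaled to the same total.

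The receptors C3ar1 and C5ar1 bind the peptides C3a and C5a and signal through G proteins to direct myeloid cells. C3ar1 was at 3987, 4271 and 4368 in nonconfined WT, 4134, 4314 and 4046 in nonconfined KO, 2591, 2567 and 2544 in confined WT and 3767, 3522 and 3549 in confined KO cells. Under LPS it was at 2369, 3122 and 2786 in libraries labelled WT and 3393, 2451 and 2848 in those labelled KO. The nonconfined groups overlapped each other and lay above the confined KO group, which lay above the confined WT and LPS libraries. C5ar1 was at 3179, 3099.6 and 3221 in nonconfined WT, 4175, 3584 and 3757 in nonconfined KO, 3585, 3506 and 3423 in confined WT and 5136, 4808 and 5005 in confined KO cells. The LPS libraries held 5644, 4584 and 5372 under the label WT and 4861, 6121 and 5548 under the label KO. It was lowest in nonconfined WT cells and highest in the LPS and confined KO libraries, which overlapped, and nonconfined KO and confined WT cells overlapped in between.

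With confinement C3ar1 fell 1.64-fold in WT cells, with a log2 fold change of -0.71 (SE 0.09, adjusted p = 7.6e-07). In KO cells it was 4165 ± 136 before and 3613 ± 134 after confinement, a log2 fold change of -0.21 (SE 0.09, adjusted p = 0.0706). This passed with the LPS libraries out of the fit (adjusted p = 0.0011) and under TMM scaling (0.026), from 0.0011 to 0.17 over all alternatives. The interaction was 0.51 (SE 0.13, adjusted p = 0.00513), so the fall was larger in WT cells, and it passed in all alternatives (adjusted p from 6.6e-06 to 0.016). C5ar1 rose 1.3-fold in KO cells (0.38, SE 0.08, adjusted p = 3.2e-04). In WT cells it was 3167 ± 61.7 before and 3505 ± 80.9 after, a log2 fold change of 0.15 (SE 0.08, adjusted p = 0.108). This change passed in a fit of these conditions alone (adjusted p = 0.0047, from 0.0047 to 0.33) and turned to -0.08 with every library scaled to the same total. The interaction of C5ar1 was 0.23 (SE 0.11, adjusted p = 0.123), and it passed with every library scaled to the same total (0.42, adjusted p = 0.0017) and with the LPS libraries out of the fit (0.02), from 0.0017 to 0.25. In confined cells both receptors were higher in KO than in WT, C3ar1 by 1.41-fold (0.49, SE 0.09, adjusted p = 1.6e-04) and C5ar1 by 1.42-fold (0.51, SE 0.08, adjusted p = 1.4e-05). In nonconfined cells C3ar1 differed by -0.01 (adjusted p = 0.956), a direction that turned without nonconfined WT library 3 or nonconfined KO library 3, and C5ar1 was 1.21-fold higher in KO cells (0.27, adjusted p = 0.0269). That difference of C5ar1 no longer passed without any 1 of 5 libraries (nonconfined WT 1, 2 or 3 and nonconfined KO 1 or 3, adjusted p = 0.07, 0.098, 0.068, 0.16 and 0.065) or with no filter (0.05, from 0.0014 to 0.16). With LPS, C3ar1 fell 1.48-fold (-0.58, adjusted p = 5.2e-08) and C5ar1 rose 1.53-fold (0.61, adjusted p = 1.1e-09), or by -0.54 and 0.57 on the log2 scale without the 3 libraries that go against their labels. With every library scaled to the same total, the rise of C5ar1 with LPS was 0.12 (adjusted p = 0.031, from 2.6e-25 to 0.031).

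C5ar1 is also known as a gene of neutrophils, and a list of 12 neutrophil genes moved with the genotype. All 12 were tested, and S100a9, a calcium-binding protein, supplied 44.3% of their sum. The sum was 256772, 261648 and 259909 in nonconfined WT, 393919, 358164 and 382454 in nonconfined KO, 173149, 165508 and 163492 in confined WT, 361891, 371197 and 357457 in confined KO, 324649, 304144 and 307383 under LPS WT and 290713, 328857 and 309390 under LPS KO. This sum was lowest in confined WT and highest in nonconfined and confined KO cells. C5ar1 was lowest in nonconfined WT and highest in LPS and confined KO libraries. The list had 10 genes higher and 0 lower in nonconfined KO than WT cells, 11 higher and 0 lower in confined KO than WT cells. It had 0 that rose and 9 that fell with confinement in WT, 2 and 5 in KO cells, and 5 and 6 with LPS. In the interaction 8 were higher and 1 lower, with a median of 0.54 against 0.05 over all genes tested. Their part in the receptor result was not tested.

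Serping1 encodes C1 inhibitor, the protease inhibitor that blocks C1r and C1s and so holds back the classical pathway. Its RNA was scarce. Serping1 was at 3.05, 0 and 1.97 in nonconfined WT, 21.9, 26.1 and 19.4 in nonconfined KO, 0, 0 and 0 in confined WT and 10.8, 4.27 and 9.11 in confined KO cells. LPS libraries stood at 23.4, 12.8 and 50.4 with the label WT and 39.2, 36.6 and 45.6 with the label KO. Every KO library held reads in nonconfined and confined cells, while no confined WT library held any. Summed over a group these were 6 reads in nonconfined WT, 76 in nonconfined KO, 0 in confined WT, 24 in confined KO, 97 under LPS WT and 106 under LPS KO. A count of 0 allows up to 3 reads over the group, or 0.985 normalized counts in confined WT cells, and floors and intervals cover counting error only. Nonconfined KO cells were 13.1-fold above nonconfined WT cells (exact 95% counting interval 5.76 to 36.9), with a log2 fold change of 3.35 (SE 0.57, adjusted p = 7.5e-04). By the same kind of interval, confined WT cells held at most 0.162 of the level of confined KO cells, 0.0433 of that under the label LPS WT and 0.0306 of that under LPS KO. The fitted difference between confined KO and WT cells, 3.10 (SE 0.57, adjusted p = 1.5e-04), depends on the count added before the log and is no bound. In KO cells Serping1 was 2.77-fold higher without than with confinement (interval 1.73 to 4.59), a log2 fold change with confinement of -1.45 (SE 0.57, adjusted p = 0.0421). That fall missed the threshold without nonconfined KO library 1, 2 or 3 (adjusted p = 0.086, 0.11 and 0.068) or confined KO library 2 or 3 (0.17 and 0.061), with the LPS libraries out of the fit (0.087), with no filter (0.089) or with a pseudocount of 0.5 (0.078), from 0.014 to 0.17 over all alternatives. In WT cells the change was -1.20 (adjusted p = 0.0789) with limma and passed with edgeR (adjusted p = 0.044), DESeq2 (0.038), a pseudocount of 0.5 (0.038) or without nonconfined WT library 2 (0.01), from 0.01 to 0.36. It compares 6 reads with 0, so its size and p depend on the count added or on the model. No nonconfined or confined WT library reached 10 normalized counts, and Serping1 passed the filter through KO and LPS libraries. The level in confined over nonconfined WT cells had an exact counting interval of 0 to 0.977. The interaction of -0.25 (adjusted p = 0.863) did not pass, and its sign turned with a pseudocount of 0.5, edgeR, DESeq2, and without nonconfined WT library 2 or confined KO library 2. LPS raised it by 2.16 (SE 0.40, adjusted p = 5.5e-05), by 1.72 without the 3 libraries that go against their labels (adjusted p = 0.0096), and by 0.83 with KO-labelled libraries alone (adjusted p = 0.21), from 1.9e-07 to 0.21 over all alternatives.

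Counted over the 9 genes, confinement in WT cells gave 1 call upward (Cfb) and 0 downward with limma, where 11.4% of all tested genes were called higher and 7.62% lower. By adjusted p alone 2 rose (C3 and Cfb) and 5 fell (the C1q genes, Cfp and C3ar1), against 56.6% of all tested genes in either direction. The median log2 fold change of the 9 was -0.59, and that of all genes tested was -0.01. At an unadjusted p under 0.05 there were 8 of the 9 in either direction, against 60.5% of all tested genes. Of the 9, edgeR and DESeq2 each called 1 gene lower, Serping1, where they called 1252 and 1348 of the 17875 genes lower. That call rests on 6 reads against 0. In KO cells confinement gave 0 calls upward and 2 downward (C1qa and Serping1) with limma, where 6.43% and 5.53% of all tested genes were called higher and lower. Here edgeR and DESeq2 also called 0 upward, where they called 1169 and 1275 of all tested genes higher. With limma 9 of 9 had an unadjusted p under 0.05 in either direction, against 52.1% of all tested genes. At the adjusted p alone 3 rose (C3, Cfb and C5ar1) and 5 fell (the C1q genes, Cfp and Serping1), against 46.3% of all tested genes, and the median was -0.40 against 0.01 over all genes tested. The interaction gave 0 calls upward and 1 downward (Cfb) with limma, where 1.11% and 6.56% of all tested genes were called higher and lower. For it edgeR and DESeq2 also called 0 upward, where they called 176 and 243 of all tested genes higher. With limma 4 of 9 and 35.9% of all tested genes had an unadjusted p under 0.05. Judged by adjusted p alone 1 was higher (C3ar1) and 2 lower (C3 and Cfb), against 25.8% of all tested genes, with a median of -0.23 against 0.05. Scaling every library to the same total moved the median of all genes to -0.23 with confinement in WT cells and to 0.24 in the interaction.

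Between genotypes, confined KO against confined WT cells gave 1 call upward (Serping1) and 1 downward (Cfb), where 2.79% and 7.31% of all tested genes were called higher and lower. At the adjusted p alone 4 were higher (C1qa, C3ar1, C5ar1 and Serping1) and 3 lower (C3, Cfb and Cfp), against 39.4% in either direction. The median was 0.23 against 0.04 over all genes, or 0.19 over all genes with every library scaled to the same total. In nonconfined cells 1 gene was called higher in KO (Serping1) and 0 lower with limma, edgeR and DESeq2 alike, where 0.85% and 0.302% of all tested genes were called higher and lower, and 7 of the 9 and 22.4% of all had an unadjusted p under 0.05. By the adjusted p 7 of the 9 were higher in nonconfined KO cells (all but Cfp and C3ar1) and 0 lower, against 8.88% of all tested genes in either direction, and the median was 0.37 against -0.002. Of these, C1qa, C1qc, C3 and C5ar1 did not pass without some single library, and Serping1 had 6 reads in the nonconfined WT group. Of 12 neutrophil genes 10 were higher and 0 lower in the same comparison. The genes of eosinophils moved strongly in this comparison. All 8 of their list were tested, Prg2, a granule protein, supplied 49.7% of the sum, Ear2 and Ear6 share their entries with related genes, and 6 were higher and 1 lower in nonconfined KO cells. The sum was 33440, 33348 and 33284 in nonconfined WT, 82530, 76508 and 78589 in nonconfined KO, 9858, 9354 and 9236 in confined WT, 25013, 24679 and 25560 in confined KO, 47547, 27547 and 38108 under LPS WT and 27528, 47777 and 38759 under LPS KO. KO cells thus held more eosinophil RNA than WT cells with and without confinement. With confinement 1 of the 8 rose and 6 fell in WT and 0 rose and 7 fell in KO cells, in confined KO against WT cells 6 were higher and 2 lower, and with LPS 0 rose and 7 fell. Of 8 genes of mast cells and basophils, all tested and led by Cpa3, a mast cell protease with 42.5% of the sum, 4 were higher and 0 lower in nonconfined KO than WT cells, and 5 and 0 in confined KO than WT cells. Of the same 8, 1 rose and 6 fell with confinement in WT, 1 and 7 in KO cells, and 1 and 6 with LPS. Their sum was 6967, 7199 and 7039 in nonconfined WT, 10611, 10301 and 10155 in nonconfined KO, 3595, 3463 and 3536 in confined WT, 5595, 5460 and 5667 in confined KO, 6963, 6719 and 6799 under LPS WT and 6539, 7142 and 7187 under LPS KO. Their part in the complement results was not tested. Of the DC list 2 genes were higher and 1 lower in nonconfined KO than WT cells, 1 rose and 7 fell with confinement in WT, 0 and 8 in KO cells, and 7 and 0 with LPS. In confined KO against WT cells 0 of the DC list were higher and 3 lower, and in the interaction 0 and 5 (median -0.39 against 0.05). In the interaction 1 eosinophil gene was higher and 1 lower, and 3 and 1 of mast cells and basophils.

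LPS against nonconfined cells gave 3 calls upward (C3, Cfb and Serping1) and 0 downward with limma, where 15.6% and 13.4% of all tested genes were called higher and lower. At an unadjusted p under 0.05 there were 9 of 9 and 73.2% of all tested genes in either direction, and edgeR and DESeq2 called 0 and 0 lower. Without the 3 libraries that go against their labels, which leaves a lone LPS WT library, C1qa fell by more than 1 on the log2 scale. Calls are not counted for that setting here. On adjusted p alone 4 of the 9 rose (C3, Cfb, C5ar1 and Serping1) and 5 fell (the C1q genes, Cfp and C3ar1), against 71.5% of all tested genes in either direction. The 9 had a median of -0.39 against 0.02, which the scaling to the same total moved to -0.47 over all genes. Under that scaling each of the 9 kept its direction with LPS, 2 were called higher (Cfb and Serping1) and 4 lower (C1qa, C1qc, Cfp and C3ar1), where 1774 and 4675 of 18016 genes were. These comparisons share the nonconfined libraries with those of confinement, so the values are set side by side without a count of what they have in common. Between the LPS labels 0 genes were called higher and 0 lower in KO with limma, and 0% of all genes passed in either direction, where 0% were called higher and 0% lower. At an unadjusted p under 0.05 there were 890 of the 17875 genes (4.98%) and 0 of the 9, and edgeR and DESeq2 called no gene. The 9 log2 fold changes ran from -0.05 (C3) to 0.68 (Serping1), with a median of 0.05 against -0.003. Without the 3 libraries whose Ddx3y goes against their labels, a lone WT library is left. C1qa then differed by 0.79, C1qb by 0.36 and C5ar1 by 0.35 on the log2 scale. As Ddx3y chose the libraries after the data were seen, these values are no test of genotype.

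Values of the 6 LPS libraries are also given in the order of Ddx3y, chosen after the data were seen, along which several members changed. In the order of Ddx3y, which is WT 2, KO 1, WT 3, KO 3, WT 1 and KO 2 as labelled, C5ar1 was 4584, 4861, 5372, 5548, 5644 and 6121, and Cfb was 9920.2, 10062, 11061, 11337, 12218 and 12981. The first 2 are not separated by their Ddx3y, which rests on 0 and 2 reads, and both genes increased from pair to pair. C1qa ran 173, 206, 257, 266, 353 and 336, and C3ar1 ran 3122, 3393, 2786, 2848, 2369 and 2451. C1qa was low in the pair with little Ddx3y, intermediate in the pair with replicate number 3 and high in the pair with most, and C3ar1 was ordered in reverse by pairs. Serping1, at 12.8, 39.2, 50.4, 45.6, 23.4 and 36.6, had no such order. Epx, a peroxidase of eosinophils named after its values were seen, was 5535, 5455, 8046, 8367, 10640 and 10123 in the same libraries. As the libraries lie in 3 pairs, no correlation is given, and the cause of the pairs was not tested. In a comparison of whole libraries, WT 2 and KO 1 (chi-square per degree of freedom 6.08) and WT 3 and KO 3 (7.49) differed less than any 2 LPS libraries of the same label (12.4 to 59.2), while WT 1 and KO 2 (16.2) lay within that range.

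**Figure D3:**
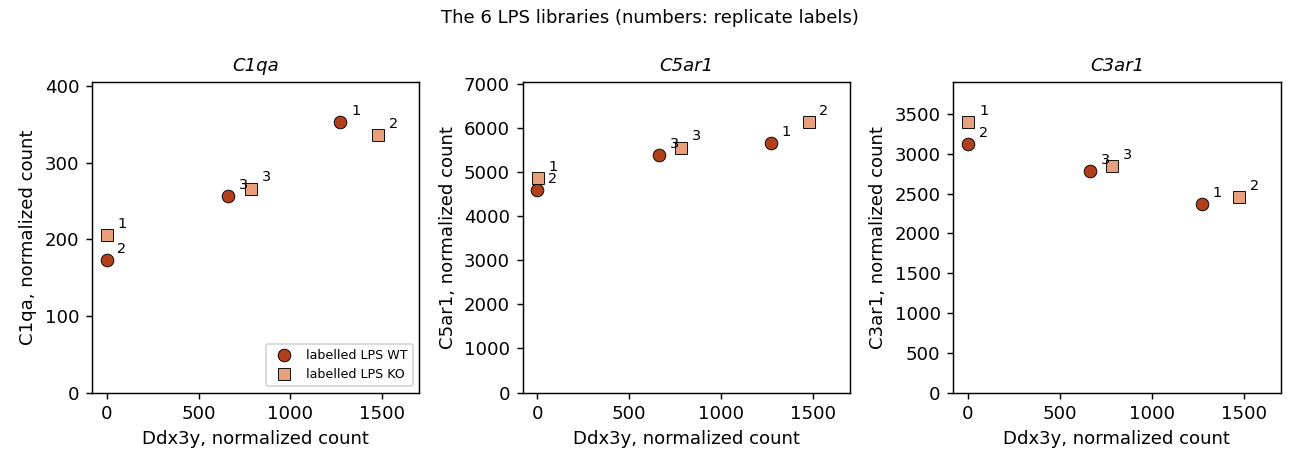
Normalized counts of C1qa, C5ar1 and C3ar1 (vertical axes) against those of Ddx3y (horizontal axes) in the 6 LPS libraries, with circles for the label WT, squares for the label KO and the replicate number beside each point. The libraries lie in 3 pairs of 1 WT and 1 KO label each, with C1qa between 173 and 353.

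Confined cells were also set against LPS cells. Confined WT cells had 0 calls upward and 2 downward (Cfb and Serping1) with limma, where 6.97% and 7.84% of all tested genes were called higher and lower. In it 7 of the 9 and 58.7% of all tested genes had an unadjusted p under 0.05, and edgeR and DESeq2 called 0 and 0 upward. At the adjusted p alone 1 was higher (Cfp) and 6 lower (C1qb, C1qc, C3, Cfb, C5ar1 and Serping1) against 54.3% of all tested genes, with a median of -0.45 against -0.01, or 0.27 over all genes with every library scaled to the same total. C1qb and C1qc differed by -0.45 (adjusted p = 2.3e-04) and -0.31 (adjusted p = 0.00532), and neither passed under that scaling (-0.16 and -0.02, adjusted p = 0.096 and 0.82, from 3.4e-06 to 0.096 and 0.00036 to 0.82). C1qc also did not pass without confined WT library 2 (adjusted p = 0.071). C1qa differed by -0.28 (adjusted p = 0.143) and turned to 0.0034 with every library scaled to the same total. It passed, as lower, without LPS WT library 2 (-0.42, adjusted p = 0.01) or LPS KO library 1 (-0.37, adjusted p = 0.043). Confined KO cells had 0 calls upward and 2 downward (Cfb and Serping1) with limma, where 10.7% and 12.9% of all tested genes were called higher and lower. In it 6 of the 9 and 66% of all tested genes had an unadjusted p under 0.05, and edgeR and DESeq2 called 0 and 0 upward. At the adjusted p alone 1 was higher (C3ar1) and 4 lower (C1qb, C3, Cfb and Serping1) against 62.9% of all tested genes, with a median of -0.12 against 0.03, or 0.47 over all genes with the same total. Cfp, at 0.11 (adjusted p = 0.0739), passed with the same total (0.55, adjusted p = 9.2e-09), TMM scaling (0.13, adjusted p just under the threshold), edgeR (0.014), DESeq2 (0.029), or without LPS WT library 2 (0.029) or LPS KO library 1 (0.015), from 9.2e-09 to 0.19. C1qc and C5ar1, at -0.11 (adjusted p = 0.268) and -0.10 (adjusted p = 0.203), turned to 0.33 and 0.35 and passed with the same total (adjusted p = 0.0012 and 2.3e-05, from 0.0012 to 0.6 and 2.3e-05 to 0.44). C5ar1 also passed, as lower, without LPS WT library 2 (0.043) or LPS KO library 1 (0.044). The C1qb value of -0.23 (adjusted p = 0.0343) turned to 0.22 with the same total and passed in that direction (adjusted p = 0.024). It did not pass with no filter (0.059), TMM scaling (0.058), edgeR (0.064), a fit of the compared conditions alone (0.099) or KO-labelled libraries alone (0.1). It no longer passed without confined KO library 1 (0.051), confined KO library 2 (0.13), confined KO library 3 (0.066), LPS WT library 1 (0.081), LPS WT library 3 (0.054), LPS KO library 2 (0.079) and LPS KO library 3 (0.06) (adjusted p from 0.0014 to 0.13 over all alternatives). Without the 3 LPS libraries that go against their labels, confined WT cells differed from LPS cells by -2.05 for Cfb, -0.49 for C3 and -0.16 for C3ar1 (adjusted p = 0.02, against -0.13, adjusted p = 0.178, with all libraries, from 0.02 to 0.5, with 0.16 when every library is scaled to the same total). Confined KO cells differed by -3.91 for Cfb, -0.79 for C3, 0.33 for C3ar1 and 0.45 for C1qa (adjusted p = 0.0015, from 0.00034 to 0.35). With all libraries C1qa differed by 0.28 (adjusted p = 0.14).

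Levels of different genes were compared per kilobase of the GENCODE canonical transcript. That transcript has 2532 bases for C1qb, 1852 for C1qc and 1834 for Serping1, whereas all exons together have 6246, 2860 and 3037. Levels, order and ratios of these genes therefore depend on the length chosen. In nonconfined WT cells Cfp stood far above the other 8, at 30074 ± 1170.3 normalized counts per kb, followed by C5ar1 at 1246 ± 24.3. C1qc at 906 ± 63.1, C1qb at 896 ± 42.0, C3 at 853 ± 37.4 and C3ar1 at 839.9 ± 39.5 per kb lay within their spread of each neighbour, and C1qa at 358 ± 16.3, Cfb at 92.8 ± 6.09 and Serping1 at 0.911 per kb followed. With LPS, Cfb passed C3 on this scale, with 3307 ± 343 against 1984 ± 130.1 per kb under the WT label and 3425 ± 437 against 1916 ± 47.6 under the KO label. The ratio of Cfb to C3 per kb, which does not depend on the scaling of a library, was 0.109 ± 0.0115 in nonconfined WT, 0.139 ± 0.0082 in nonconfined KO, 0.591 ± 0.0158 in confined WT, 0.199 ± 0.0058 in confined KO, 1.66 ± 0.0640 under LPS WT and 1.79 ± 0.184 under LPS KO. The receptors also shifted against each other: C5ar1 per C3ar1 was 1.49 ± 0.0757 in nonconfined WT and 1.82 ± 0.177 in nonconfined KO, 2.69 ± 0.0379 in confined WT and 2.72 ± 0.0524 in confined KO, and 3.80 ± 0.901 and 3.86 ± 1.05 under the LPS labels. This ratio was close in confined WT and KO cells although both receptors were higher in the KO. Among the C1q chains the ratio of C1qc to C1qb per kb stayed between 0.792 ± 0.0792 (LPS WT label) and 1.01 ± 0.0234 (nonconfined WT), and that of C1qa to C1qb between 0.281 ± 0.0444 (LPS WT label) and 0.487 ± 0.0494 (nonconfined KO).

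Of 44 other complement genes, 24 were tested, 11 had means of 100 normalized counts or more, and 19 never reached 10 in any library. Several have close paralogs (C4a and C4b, C1ra and C1rb, C1s1 and C1s2, Cd55 and Cd55b, Cd59a and Cd59b), whose reads may not be separated well. With confinement 3 rose and 10 fell in WT cells (median -0.44 against -0.01 over all genes tested, 56.6% of which passed), 3 rose and 7 fell in KO cells (median -0.14 against 0.01, with 46.3%), and in the interaction 2 were higher and 1 lower (median 0.10 against 0.05, with 25.8%). In KO against WT cells 7 were higher and 1 lower with confinement (median 0.09 against 0.04, with 39.4%) and 1 and 1 without it (median 0.11 against -0.002, with 8.88%), and with LPS 9 rose and 10 fell (median 0.04 against 0.02, with 71.5%). C5ar2, a further receptor for C5a, was at 481, 495 and 471 in nonconfined WT, 545, 611 and 502 in nonconfined KO, 321, 334 and 323 in confined WT and 766, 665 and 718 in confined KO cells. Under LPS it was at 200.3, 262 and 228 in libraries labelled WT and 239, 204 and 215 in those labelled KO. It fell with confinement in WT (-0.56, adjusted p = 6.4e-05) and rose in KO cells (0.38, adjusted p = 0.00424), with no overlap between the groups compared and an interaction of 0.94 (SE 0.14, adjusted p = 3.0e-05). It also fell with LPS (-1.20, adjusted p = 1.5e-12). Fcnb, a ficolin that starts the lectin pathway, was at 661, 736 and 664 in nonconfined WT, 675, 620.0 and 641 in nonconfined KO, 364, 302 and 315 in confined WT and 786, 727 and 695 in confined KO cells. The LPS libraries held 588, 732 and 631 under the label WT and 747, 595 and 658 under the label KO. The confined WT libraries alone were low. Fcnb fell with confinement in WT cells (-1.07, adjusted p = 4.5e-09), in KO cells its change was 0.19 (adjusted p = 0.121), and the interaction was 1.26 (SE 0.14, adjusted p = 3.0e-07). Hc, which encodes C5 and was chosen after its values were seen, since its mean is under 100, was at 9.91, 10.2 and 11.8 in nonconfined WT, 14.9, 12.1 and 21.4 in nonconfined KO, 96.6, 70.3 and 64.0 in confined WT and 21.6, 17.1 and 10.0 in confined KO cells. LPS libraries stood at 139, 99.8 and 118 with the label WT and 126, 170.5 and 142 with the label KO. It rose with confinement in WT (2.72, adjusted p = 4.7e-08) and not in KO cells (-0.02, adjusted p = 0.971), with an interaction of -2.74 (SE 0.41, adjusted p = 2.1e-05), and rose with LPS (3.24, adjusted p = 3.6e-12). Among regulators, Cd55, which speeds the decay of convertases, fell with confinement in WT and KO cells (-0.78, adjusted p = 6.5e-05, and -0.68, adjusted p = 4.3e-04), as did Clu, which binds the terminal complex (-0.89, adjusted p = 4.5e-04, and -1.36, adjusted p = 5.9e-06). Clu rose with LPS (0.65, adjusted p = 2.3e-04, or 0.15 with adjusted p = 0.32 with every library scaled to the same total). Itgam and Itgax, the alpha chains of complement receptors 3 and 4, fell with confinement in WT (-0.47, adjusted p = 1.5e-08, and -0.44, adjusted p = 4.6e-06) and KO cells (-0.37, adjusted p = 1.0e-06, and -0.25, adjusted p = 0.00269). Itgam also fell with LPS (-0.44, adjusted p = 5.4e-11), whereas Itgax and their beta chain Itgb2 rose with it (0.29, adjusted p = 6.7e-06, and 0.23, adjusted p = 2.2e-05), in a direction that turned to -0.21 and -0.27 with every library scaled to the same total. With confinement Itgb2 rose in KO cells (0.33, adjusted p = 5.3e-05) and changed by 0.13 (adjusted p = 0.0589) in WT cells. Cd93, once taken for a C1q receptor, fell with LPS (-1.97, adjusted p = 4.7e-17) and rose with confinement in WT and KO cells (0.26, adjusted p = 0.0204, and 0.33, adjusted p = 0.00516). The rise in WT cells did not pass with every library scaled to the same total (0.04, adjusted p = 0.76) or without nonconfined WT library 2, confined WT library 1 or confined WT library 3 (0.065, 0.054 and 0.057), from 0.00014 to 0.76. That in KO cells did not pass without nonconfined KO library 1 (0.053, from 0.00024 to 0.053). C1qbp, a C1q-binding protein found mainly in mitochondria, fell with confinement in WT and KO cells and with LPS (-0.70, adjusted p = 3.0e-10, -0.58, adjusted p = 1.2e-08, and -0.87, adjusted p = 5.4e-15). C1ra, a protease of C1, rose with LPS (0.66, adjusted p = 7.0e-07, or 0.17 with adjusted p = 0.075 with the same total). Cr1l, a regulator of C3, changed by 0.11 (adjusted p = 0.037) with LPS, which turned to -0.39 with the same total, from 3.4e-08 to 0.49. It did not pass with no filter (0.06), TMM scaling (0.49), edgeR (0.27), DESeq2 (0.14), the compared conditions alone (0.062), a replicate block (0.051), WT or KO labels alone (0.059 and 0.32), or without the 3 libraries that go against their labels (0.11). Nor did it without nonconfined WT library 1 or 3, nonconfined KO library 2, LPS WT library 1 or 3 or LPS KO library 2 or 3 (0.1, 0.06, 0.13, 0.078, 0.058, 0.056 and 0.096). The change of Cr1l with confinement in WT cells, -0.15, no longer passed with no filter (0.064), edgeR (0.095), DESeq2 (0.05) or a replicate block (0.054). The same held without nonconfined WT library 2 or 3 or confined WT library 1 or 3 (0.17, 0.077, 0.051 and 0.15).

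For each member whose mean reached 100 normalized counts, the 3 genes with the most similar pattern were taken from 10546 candidates by the Pearson correlation of log2(normalized count + 1) over the 18 libraries. These fall into 6 groups and share scaling, so r is given as a description. For C1qa these were Ly86 (r = 0.974), Ap1s2 (r = 0.936) and Hsd17b4 (r = 0.935), and for C1qb Fgfr1 (r = 0.954), Ctsh (r = 0.951) and Ifi30 (r = 0.950). For C1qc they were Fgfr1 (r = 0.975), Bbs9 (r = 0.961) and Cradd (r = 0.949). Fgfr1, a growth factor receptor, thus stood first for both C1qb and C1qc. For Cfb they were Map3k8 (r = 0.999), Cdc42ep2 (r = 0.998) and Irak3 (r = 0.997), and for C3 Mvp (r = 0.995), Cdc42ep2 (r = 0.995) and App (r = 0.994). Map3k8 and Irak3 are a kinase and a regulator of Toll-like receptor signalling, and Cdc42ep2, which binds Cdc42, stood in both lists. For Cfp they were Fam3c (r = 0.978), Dpep2 (r = 0.970) and Elovl5 (r = 0.966), and for C3ar1 Tram1 (r = 0.971), Olfml2b (r = 0.956) and Foxo3 (r = 0.949). The genes for C5ar1 were Fam219a (r = 0.990), Mpp1 (r = 0.970) and Gabarap (r = 0.960).

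In the deposited coordinates, on GRCm39, all 9 genes lie on the minus strand: C1qa (GSMG0039560, chr4:136623227-136626155), C1qb (GSMG0039558, chr4:136607437-136613511), C1qc (GSMG0039559, chr4:136617113-136620225), C3 (GSMG0024967, chr17:57510967-57535136), Cfb (GSMG0024654, chr17:35075355-35081490), Cfp (GSMG0061426, chrX:20791693-20797794), C3ar1 (GSMG0047082, chr6:122824099-122833119), C5ar1 (GSMG0050521, chr7:15980668-15993465) and Serping1 (GSMG0032210, chr2:84595705-84605773). The C1q genes are neighbours within 18719 bases of chromosome 4, each with 3 exons in the canonical transcript, while C3 has 41 exons and Cfb 18. The 5′ end of Cfb lies 87 bases from C2, its paralog in the classical pathway. C2 ranged from 3.93 to 79.0 normalized counts over the 18 libraries, where Cfb ranged from 291 to 12981. In GENCODE coordinates Nelfe, on the opposite strand, shares 3865 bases with Cfb at a mean of 2722 normalized counts, and the annotation also lists Gm20547, a read-through gene on the strand of Cfb. Noncoding genes on the opposite strand overlap C1qb and C1qc (Gm69251), C3 (Gm65552) and Cfp (Gm61816). The libraries were stranded, but whether the counting used the strand is not stated.

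Promoters were read from a set made from RefSeq on GRCm38.p6, as 250 bases before to 50 bases after the start of the gene. In this set 6 of the 9 genes matched, and C1qa, Cfb and Serping1 had no entry. They were searched on both strands for GAAANNGAA (core of the interferon response element), TTCNNNGAA (a GAS-like element), GAGGAA (PU.1 core), TTGCNNAA (a C/EBP-like element) and the NF-κB consensus, which 8.56%, 8.3%, 28.3%, 10.8% and 5.89% of all 32851 promoters of this length hold. C1qb had 1 match, to GAGGAA, 30 bases before the start. C1qc had 2, to the reverse complement of GAGGAA 193 bases before and to the NF-κB consensus 41 bases before it, and C3 had 1, to TTGCNNAA, 45 bases before it. C5ar1 had 1 match to the reverse complement of GAAANNGAA, 66 bases before the start, Cfp had 2 to that of GAGGAA, both after the start, and C3ar1 had none. No matches overlapped. A match describes letters and is no evidence of binding, and no match means only that these letters are not in the window.

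Shown 5′ to 3′ on the minus strand, with matches in capitals, are the promoters of C1qb (chr4:136886151-136886450) and C1qc (chr4:136892865-136893164), neighbours that fell together with confinement, of C3 (chr17:57228087-57228386), which rose with confinement and LPS, and of the receptor genes C5ar1 (chr7:16259289-16259588) and C3ar1 (chr6:122856108-122856407), which moved in opposite directions with LPS.
C1qb: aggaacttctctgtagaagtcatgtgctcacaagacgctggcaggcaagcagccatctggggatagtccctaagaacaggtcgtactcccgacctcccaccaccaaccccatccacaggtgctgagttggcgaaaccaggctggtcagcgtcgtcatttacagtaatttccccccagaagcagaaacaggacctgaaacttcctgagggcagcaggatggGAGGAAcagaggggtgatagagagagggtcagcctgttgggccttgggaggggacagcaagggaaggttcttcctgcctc
C1qc: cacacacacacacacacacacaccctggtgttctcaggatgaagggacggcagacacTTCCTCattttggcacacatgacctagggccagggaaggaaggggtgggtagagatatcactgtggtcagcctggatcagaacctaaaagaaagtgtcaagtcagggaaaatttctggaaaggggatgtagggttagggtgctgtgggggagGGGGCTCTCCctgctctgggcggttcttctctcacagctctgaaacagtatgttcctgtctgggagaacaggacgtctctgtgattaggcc
C3: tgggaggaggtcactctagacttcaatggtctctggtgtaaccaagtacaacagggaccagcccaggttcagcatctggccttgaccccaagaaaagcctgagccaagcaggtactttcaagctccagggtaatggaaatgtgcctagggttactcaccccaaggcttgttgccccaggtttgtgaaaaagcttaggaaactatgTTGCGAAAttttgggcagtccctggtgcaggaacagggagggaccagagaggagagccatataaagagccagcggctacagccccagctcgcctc
C5ar1: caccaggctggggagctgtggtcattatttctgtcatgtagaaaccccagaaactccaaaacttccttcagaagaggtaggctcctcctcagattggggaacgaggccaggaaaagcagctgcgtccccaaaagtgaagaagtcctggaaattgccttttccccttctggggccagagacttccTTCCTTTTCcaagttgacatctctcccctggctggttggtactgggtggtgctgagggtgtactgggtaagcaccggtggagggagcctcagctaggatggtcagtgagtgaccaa
C3ar1: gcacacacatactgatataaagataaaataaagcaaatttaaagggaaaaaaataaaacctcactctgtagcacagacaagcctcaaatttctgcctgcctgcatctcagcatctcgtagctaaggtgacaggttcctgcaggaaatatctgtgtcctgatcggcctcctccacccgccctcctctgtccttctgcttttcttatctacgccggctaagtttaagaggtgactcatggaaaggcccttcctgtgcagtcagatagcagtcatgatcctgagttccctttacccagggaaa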

How the data were processed

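The deposited table holds a signal value per gene and library that the authors made, according to the table's name, the sample labels and the Methods, by mapping reads with STAR 2.7.5a to mm39 (GRCm39), counting them on the Mouse FAST DB annotation (the labels name featureCounts 1.5.0) and dividing the counts by DESeq2 size factors in R 3.5.3. The tool versions are from the labels. Multiplied by a factor per library, 100% of the values above 0 came out as whole reads to within 1e-06 reads (largest deviation 2.68e-09). Reads on genes per library ran from 33027230 to 61300021. Members other than Serping1 had at least 189 reads in every library, with C1qa the lowest of them. Groups came from the labels of the 18 libraries, and no library was left out. The main test was limma 3.58.1 in R 4.3.3 (lmFit and contrasts, then eBayes with its trend option) on log2(normalized count + 1), with a mean per condition and no replicate term, for 17875 genes that reached 10 normalized counts in 3 or more libraries, in 9 comparisons. The thresholds for a call were an adjusted p of 0.05 and a log2 fold change of 1 in either direction. Alternatives were pseudocounts of 0.5 and 5, no filter or one of 100, TMM or same-total scaling, edgeR 4.0.16 and DESeq2 1.42.0 on the recovered reads, fewer libraries in the fit, a replicate block, each library left out in turn, single genotype labels, and thresholds of 1.5-fold and an unadjusted p of 0.05. The Methods give that fold and p without naming an adjustment, while a figure legend uses a false discovery rate and a log2 fold change of 1. Leaving out 3 or all 6 LPS libraries was added after seeing the data. edgeR called 2141 genes higher and 1252 lower with confinement in WT and 1169 genes higher and 993 lower in KO cells, 176 genes higher and 1166 lower in the interaction, 423 genes higher and 1319 lower in confined and 145 genes higher and 38 lower in nonconfined KO against WT cells, and 2702 genes higher and 2528 lower with LPS. The scripts were tested on simulated data. Named are the 9 members, Pla2g4a and Ddx3y, other complement genes whose mean reached 100 normalized counts, and for each member that reached it the 3 genes that correlate best with it. Also named are Hc and C2, whose means were lower, close paralogs, marker genes, and genes that overlap members. The members and the lists (DC, macrophage, neutrophil, eosinophil, mast cell and basophil, other complement) were chosen with earlier results of these data known. Tables and figures were made with Python 3.11.15, pandas 2.3.3, scipy 1.17.1 and matplotlib 3.10.9.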

Additional observations from a re-analysis of the deposited data

Results flagged for a closer look

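Confinement changed 6 genes by different amounts in WT and KO cells, by a test of the difference itself, in which the change in WT is taken from the change in KO cells. They are 3 of the 9 members and 3 of 24 other complement genes tested, where 25.8% of all tested genes passed, and Hc was chosen after its values were seen. For C3 that difference was -0.49 on the log2 scale, for Cfb -2.41, for C3ar1 0.51, for Fcnb 1.26, for Hc -2.74 and for C5ar2 0.94. C3, Cfb and Hc rose in WT cells with a smaller or no passing change in KO cells. C3ar1, Fcnb and C5ar2 fell in WT cells, and of these C5ar2 rose in KO cells. In the same test 8 of 12 neutrophil genes were higher and 1 lower, with a median of 0.54 against 0.05 over all genes tested. Of 8 DC genes 0 were higher and 5 lower (median -0.39), and of 10 macrophage genes 0 and 3. The part of these cells in the values was not tested.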

How the results depend on the processing

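Of 2191 alternative values of single genes, 2041 kept their direction and side of the threshold, 38 newly passed, 76 no longer passed and 36 reversed. Of 736 alternative counts, 653 stayed within 1.5 times the main count. Depth limits Serping1, with at most 106 reads in a group. The pseudocount of 0.5 gave members lower 1 (from 0) in confinement in WT, 1 (from 2) in confinement in KO, and reversed log2 fold changes 0.20 for Serping1 in the interaction. The pseudocount of 5 gave genes lower 31 (from 54) in nonconfined KO against WT. With no filter there were genes higher 1 (from 0) in LPS KO against LPS WT, and members lower 1 (from 2) in confinement in KO. With the filter at 100 normalized counts 11894 genes were tested, Serping1 not among them, and the counts were genes higher 1248 (from 2038) in confinement in WT, 531 (from 1150) in confinement in KO, 90 (from 198) in the interaction, 198 (from 498) in confined KO against WT, 75 (from 152) in nonconfined KO against WT, 1781 (from 2791) in LPS against nonconfined, 552 (from 1245) in confined WT against LPS, 904 (from 1914) in confined KO against LPS, and genes lower 751 (from 1362) in confinement in WT, 556 (from 989) in confinement in KO, 863 (from 1307) in confined KO against WT, 21 (from 54) in nonconfined KO against WT, 1367 (from 2397) in LPS against nonconfined, 812 (from 1402) in confined WT against LPS, 1512 (from 2313) in confined KO against LPS, and members higher 0 (from 1) in confined KO against WT, 0 (from 1) in nonconfined KO against WT, and members lower 1 (from 2) in confinement in KO, 1 (from 2) in confined WT against LPS, 1 (from 2) in confined KO against LPS. Scaling each library to the same total gave genes higher 514 (from 198) in the interaction, 788 (from 498) in confined KO against WT, 1774 (from 2791) in LPS against nonconfined, 2150 (from 1245) in confined WT against LPS, 4090 (from 1914) in confined KO against LPS, and genes lower 2166 (from 1362) in confinement in WT, 4675 (from 2397) in LPS against nonconfined, and members lower 1 (from 0) in confinement in WT, 4 (from 0) in LPS against nonconfined, and reversed log2 fold changes -0.0787 for C5ar1 in confinement in WT, 0.0161 for C1qc in the interaction, 0.0189 for Cfp in the interaction, -0.39 for Cr1l in LPS against nonconfined, -0.21 for Itgax in LPS against nonconfined, -0.27 for Itgb2 in LPS against nonconfined, 0.0034 for C1qa in confined WT against LPS, 0.16 for C3ar1 in confined WT against LPS, 0.22 for C1qb in confined KO against LPS, 0.33 for C1qc in confined KO against LPS, 0.35 for C5ar1 in confined KO against LPS. TMM scaling gave members lower 1 (from 0) in LPS against nonconfined, and reversed log2 fold changes -0.0117 for Cfp in LPS KO against LPS WT. With edgeR there were members lower 1 (from 0) in confinement in WT, and reversed log2 fold changes 2.47 for Serping1 in the interaction. With DESeq2 there were members lower 1 (from 0) in confinement in WT, and reversed log2 fold changes 1.73 for Serping1 in the interaction. At 1.5-fold and an unadjusted p of 0.05, a looser threshold, there were genes higher 3269 (from 2038) in confinement in WT, 2254 (from 1150) in confinement in KO, 1019 (from 198) in the interaction, 1366 (from 498) in confined KO against WT, 601 (from 152) in nonconfined KO against WT, 4272 (from 2791) in LPS against nonconfined, 145 (from 0) in LPS KO against LPS WT, 2490 (from 1245) in confined WT against LPS, 3518 (from 1914) in confined KO against LPS, and genes lower 2898 (from 1362) in confinement in WT, 1973 (from 989) in confinement in KO, 1937 (from 1173) in the interaction, 2109 (from 1307) in confined KO against WT, 399 (from 54) in nonconfined KO against WT, 3966 (from 2397) in LPS against nonconfined, 171 (from 0) in LPS KO against LPS WT, 2488 (from 1402) in confined WT against LPS, and members higher 2 (from 1) in confinement in WT, 1 (from 0) in confinement in KO, 2 (from 1) in nonconfined KO against WT, and members lower 5 (from 0) in confinement in WT, 4 (from 2) in confinement in KO, 2 (from 0) in LPS against nonconfined. KO-labelled libraries alone gave members higher 1 (from 3) in LPS against nonconfined, and members lower 1 (from 0) in LPS against nonconfined. Without the 3 LPS libraries against their labels, chosen after seeing the data and with a lone LPS WT library assumed to vary like the other groups, there were genes higher 81 (from 0) in LPS KO against LPS WT, and genes lower 15 (from 0) in LPS KO against LPS WT, and members lower 1 (from 0) in LPS against nonconfined, and reversed log2 fold changes 0.36 for C1qb in LPS KO against LPS WT, 0.0623 for C3 in LPS KO against LPS WT, -0.15 for Cfp in LPS KO against LPS WT, -0.24 for C3ar1 in LPS KO against LPS WT. Without all 6 LPS libraries, also chosen after seeing the data, there was members lower 1 (from 2) in confinement in KO. Leaving out single libraries gave these ranges for results that changed: members lower in LPS against nonconfined 0 to 1, members lower in confinement in WT 0 to 1, Serping1 in the interaction -0.66 to 0.35, genes lower in nonconfined KO against WT 20 to 95, C3ar1 in nonconfined KO against WT -0.0532 to 0.0126, members lower in confinement in KO 1 to 2, genes higher in nonconfined KO against WT 90 to 143, C1qb in LPS KO against LPS WT -0.19 to 0.0908, Cfp in LPS KO against LPS WT -0.0599 to 0.0654, C3ar1 in LPS KO against LPS WT -0.0534 to 0.18, genes higher in LPS KO against LPS WT 0 to 1, C1qa in LPS KO against LPS WT -0.19 to 0.33, C1qc in LPS KO against LPS WT -0.11 to 0.15, Cfb in LPS KO against LPS WT -0.0460 to 0.14, C5ar1 in LPS KO against LPS WT -0.0052 to 0.17, genes lower in LPS KO against LPS WT 0 to 1. Under the same total the share of calls that were higher moved from 59.9% to 42.7% in confinement in WT, 14.4% to 33.8% in the interaction, 27.6% to 41.6% in confined KO against WT, 53.8% to 27.5% in LPS against nonconfined, 47% to 69.4% in confined WT against LPS, 45.3% to 72.5% in confined KO against LPS, and leaving out nonconfined WT library 2 or nonconfined KO library 2 moved it from 73.8% to 84% or 60.1% in nonconfined KO against WT. The filter and the looser threshold change counts by construction, and for the other changes the cause was not tested.

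The replicate block left 146 of 148 values on the same side and in the same direction. With it 2032 genes were called higher and 1360 lower with confinement in WT, and 1150 and 978 in KO cells. Cr1l accounts for the other 2 values. Same-numbered libraries deviated from their group means with r from -0.142 to 0.338, and differently numbered ones with r from -0.314 to 0.166. Of 18 libraries, 8 correlated best with one of their own number. That count includes the LPS libraries, some of which go against their labels in Ddx3y, so it cannot exclude pairing. Confined WT 1 had r = 0.338 with confined KO 1 and r = -0.314 with confined KO 2. The main fit did not pair libraries by number.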
